A study of Mus musculus with 10 samples.

Results

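The SLC25 carriers are membrane proteins that move metabolites between the cytosol and the mitochondrial matrix, and the uncoupling proteins Ucp1, Ucp2 and Ucp3 belong to the same family. Their genes were chosen from the count table as protein-coding rows named Slc25a followed by a number, plus Ucp1, Ucp2 and Ucp3, with the citrate carrier gene Slc25a1 and the carnitine-acylcarnitine carrier gene Slc25a20 left out. This gave 48 of 56748 genes. The libraries are poly-A RNA-seq of primary hepatocytes of wild-type mice, cultured overnight with conditioned medium from adipocytes. Mttp_KO_CM, with 5 libraries, received medium of adipocytes from A-Mttp-/- mice, which lack Mttp in adipose tissue. Mttp_flox_CM, also with 5 libraries, received medium of adipocytes from Mttp f/f mice, which carry the floxed alleles. The Mttp product transfers lipid to nascent apolipoprotein B in the endoplasmic reticulum.

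In both groups stromal vascular cells of inguinal fat were taken from male mice kept on an obesogenic diet for 6 months, and the labels give 3 mice. The cells were differentiated into adipocytes with IBMX, insulin, dexamethasone, indomethacin and the PPARγ agonist rosiglitazone, and were starved overnight before the medium was taken. The sources used here do not give the promoter that drove the deletion, the ages of the mice or the number of hepatocyte donors. Every library came from cells given conditioned medium, and the hepatocytes themselves kept their Mttp gene. The comparison asks how the carrier transcripts of wild-type hepatocytes differ between the media. The count total of a library was 14283517 to 17178131 in Mttp_KO_CM and 14199798 to 15950530 in Mttp_flox_CM. In each group 1 column carried a number that no label gives, and this library is called unnumbered. With 3 fat donor mice given, the 5 libraries of a group cannot each have a fat donor of their own. They are thus not 5 separate replicates of the donor genotype. No label says how the donors were divided or pooled over the libraries. The labels also leave out whether libraries of 1 group stem from different hepatocyte animals or cultures. The p-values therefore reflect the spread among these libraries only, and that spread may be technical.

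The carriers share a fold of repeated membrane-spanning modules and sit almost entirely in the inner mitochondrial membrane. Most exchange 1 metabolite for another, so they decide which substrates of the citric acid cycle, fatty acid oxidation, amino acid breakdown and ATP synthesis can cross. Uncoupling proteins let protons or anions leak across the same membrane. Ucp1 makes heat in brown fat. Ucp2 occurs in many tissues and in liver macrophages, and Ucp2 and Ucp3 are known to respond to fatty acids through PPAR receptors.

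Carrier transcripts were more often higher than lower in hepatocytes given medium of Mttp-knockout adipocytes. Of the 48 genes, 42 had enough reads to be tested, 19 rose in Mttp_KO_CM, 4 fell and 19 did not pass the test (edgeR quasi-likelihood test, Benjamini-Hochberg adjusted p under 0.05 over all 14183 genes tested). Among all genes tested 18.2% were higher and 18.1% lower. The median log2 change was 0.10 over the 42 carriers and 0.00 over all genes. At a log2 change of at least 0.58, about 1.5-fold, 4 carriers rose, the orphan carriers Slc25a34 and Slc25a47, Ucp2 and the coenzyme A carrier Slc25a42. Slc25a35 and Slc25a48 fell by as much. Of all genes tested 2.45% rose and 5.09% fell by this much. The other 17 called carriers moved by less. The groups had no overlapping values for 15 of the 42, where 25.7% of all genes tested showed no overlap. With library size in place of TMM scaling, 38.1% of all calls were higher, against 50.1% with TMM, and 16 carriers rose and 4 fell.

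**Figure D1:**
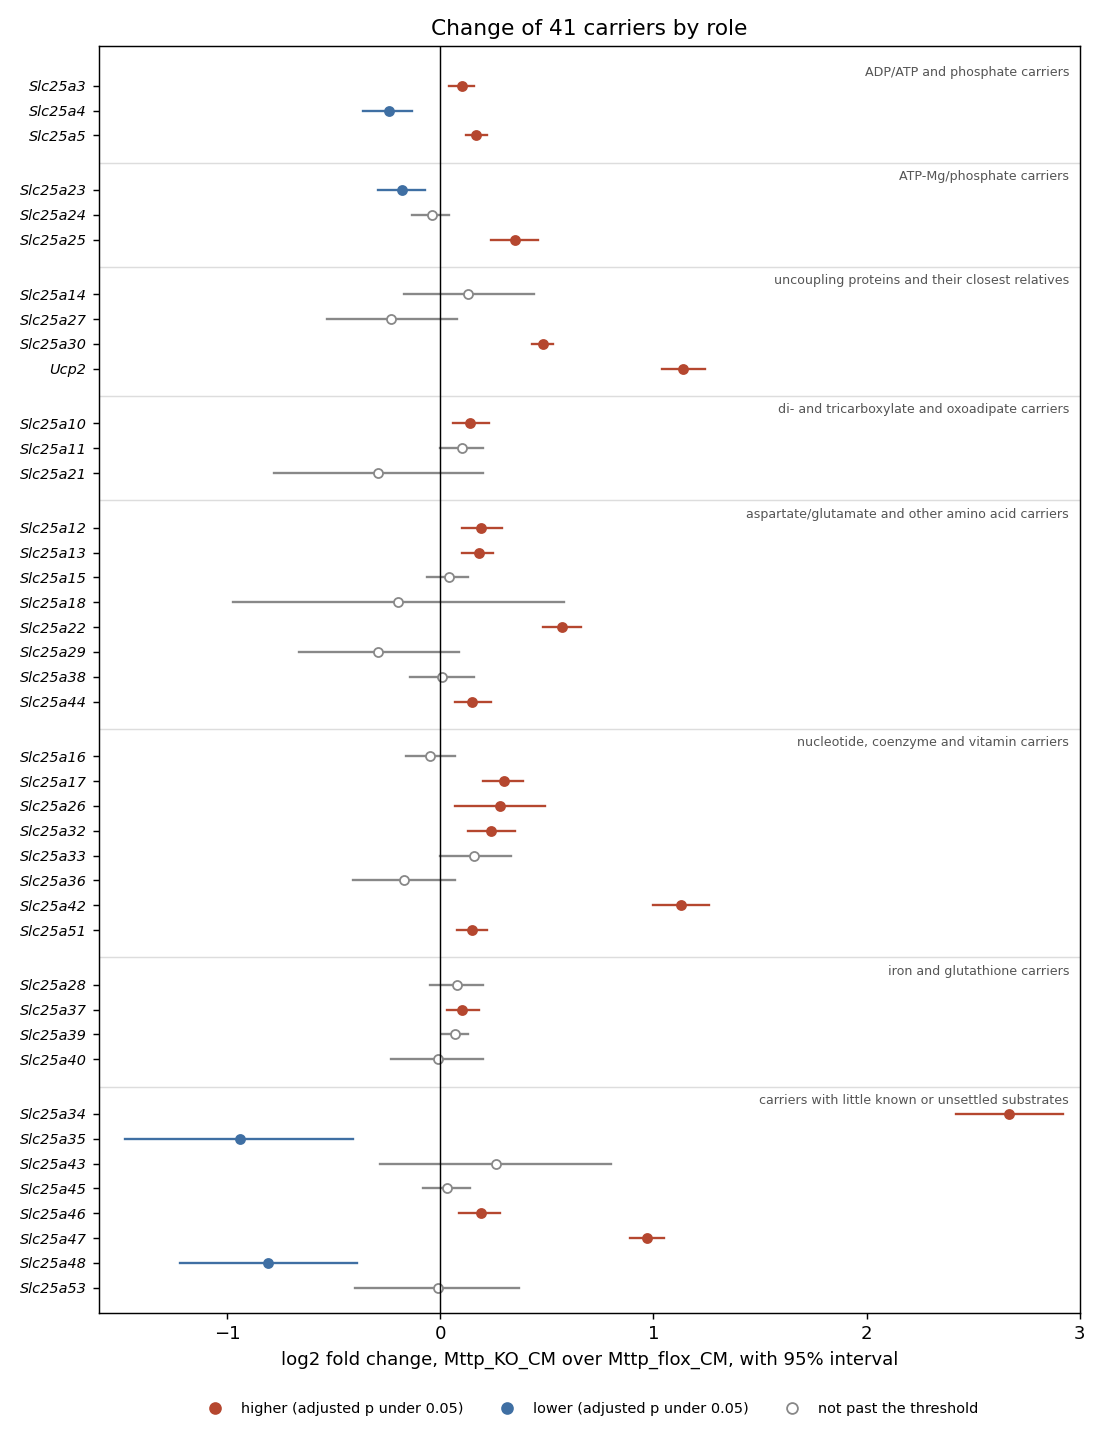
Log2 fold change of Mttp_KO_CM over Mttp_flox_CM for 41 of the 42 tested carriers, grouped by role, with 95% intervals from the edgeR fit (5 libraries per group). Filled points passed the threshold; Slc25a34 stands apart at 2.67, and Ucp2, Slc25a42 and Slc25a47 follow near 1.

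The promoters of the 4 genes with the largest rises are shown because these rises were past 1.5-fold. The windows are those of RefSeq on GRCm38.p6, from 250 bases before to 50 bases after the start site, in the direction of transcription. Symbols matched for 37 of the 48 genes. Capitals mark the nuclear receptor hexamer AGGTCA, the CCAAT box CCAAT and the GC box GGGCGG, each searched on both strands. The Slc25a34 window lies at chr4:141623785-141624084 on the minus strand, that of Ucp2 at chr7:100493108-100493407 on the plus strand, that of Slc25a42 at chr8:70212232-70212531 on the minus strand and that of Slc25a47 at chr12:108850879-108851178 on the plus strand.
Slc25a34: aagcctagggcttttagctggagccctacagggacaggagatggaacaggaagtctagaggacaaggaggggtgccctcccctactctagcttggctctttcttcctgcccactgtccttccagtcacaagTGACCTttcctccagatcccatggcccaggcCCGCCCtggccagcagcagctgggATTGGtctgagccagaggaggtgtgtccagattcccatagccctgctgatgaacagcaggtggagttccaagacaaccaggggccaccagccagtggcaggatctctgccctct
Ucp2: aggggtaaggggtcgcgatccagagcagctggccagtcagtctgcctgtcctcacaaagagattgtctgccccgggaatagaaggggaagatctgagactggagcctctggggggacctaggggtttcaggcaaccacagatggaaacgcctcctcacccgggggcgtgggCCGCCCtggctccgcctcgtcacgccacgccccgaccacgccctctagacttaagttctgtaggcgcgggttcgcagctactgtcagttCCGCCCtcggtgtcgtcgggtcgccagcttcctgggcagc
Slc25a42: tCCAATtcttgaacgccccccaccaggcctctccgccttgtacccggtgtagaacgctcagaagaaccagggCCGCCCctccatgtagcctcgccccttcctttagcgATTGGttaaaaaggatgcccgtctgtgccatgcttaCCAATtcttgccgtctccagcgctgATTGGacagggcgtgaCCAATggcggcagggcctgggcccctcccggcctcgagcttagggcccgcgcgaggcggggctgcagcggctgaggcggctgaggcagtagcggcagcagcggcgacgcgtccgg
Slc25a47: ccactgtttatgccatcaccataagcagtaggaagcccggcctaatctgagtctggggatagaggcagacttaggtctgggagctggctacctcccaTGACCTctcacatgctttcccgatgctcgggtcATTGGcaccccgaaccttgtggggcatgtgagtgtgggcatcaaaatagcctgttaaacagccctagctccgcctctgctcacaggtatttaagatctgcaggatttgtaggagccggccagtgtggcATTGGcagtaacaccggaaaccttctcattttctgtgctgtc

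These windows hold different letters. The Slc25a34 window has the hexamer 119, a GC box 88 and a CCAAT box 64 bases before the start site. The Slc25a47 window has the hexamer 153 bases before the start site and a CCAAT box on each side of it. The Slc25a42 window holds 5 CCAAT boxes, a GC box 178 bases before the start site and no hexamer. The Ucp2 window holds 2 GC boxes and neither of the other motifs. Over the matched carriers the hexamer occurred in 6 of 37, or 16.2%, where 18.1% of all genes with a window had it. The CCAAT box occurred in 18, or 48.6%, against 41.1% of all genes. The GC box occurred in 29, or 78.4%, against 38.2% of all genes, and the median GC content was 59.7% over carrier windows and 52.7% over all windows. Here all genes means the 27025 with a window, not limited to protein-coding or tested genes as the carriers largely are. The direct repeat AGGTCANAGGTCA, to which PPAR and RXR bind as a pair, was in none of the carrier windows and in 0.0481% of all genes. The ERR motif TNAAGGTCA, which contains the hexamer, was also in none of them, against 1.43% of all genes. The NRF1 motif GCGCANGCGC was in the windows of Slc25a3 and Slc25a31, or 5.41%, against 5.19% of all genes. The letters of a window say nothing about binding in these cells.

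Levels are given as CPM, read counts scaled to library size with TMM factors, and levels of different genes are compared per kilobase of gene length. The summed level of the 48 genes was 1150 ± 18.5 CPM per kb in Mttp_KO_CM and 958 ± 11.3 CPM per kb in Mttp_flox_CM (SD, n = 5 each), with a range of 1122 to 1172 in Mttp_KO_CM and 943 to 970 in Mttp_flox_CM. A few carriers made up most of it. The 5 highest genes held 68.4% of the summed level in Mttp_KO_CM and 66.4% in Mttp_flox_CM. They were the same in both groups and comprised the ADP/ATP carrier Slc25a5, Slc25a30, the glutathione carrier Slc25a39, Slc25a47 and the phosphate carrier Slc25a3. Slc25a5 stood highest at 264 ± 1.66 CPM per kb in Mttp_KO_CM and 235 ± 4.35 in Mttp_flox_CM. Slc25a30 was next at 244 ± 6.40 CPM per kb in Mttp_KO_CM and 175 ± 2.50 in Mttp_flox_CM. Slc25a47 ranked number 4 in Mttp_KO_CM, at 88.0 ± 5.11 CPM per kb, and number 5 in Mttp_flox_CM, at 45 ± 2.35, behind Slc25a3 at 54.3 ± 1.23. Of the net difference of 192 CPM per kb between the groups, Slc25a30 held 35.8%, Slc25a47 22.4% and Slc25a5 14.9%. Slc25a34 held 3.22% of it, since its level per kb was low, 7.33 ± 1.00 in Mttp_KO_CM and 1.15 ± 0.216 in Mttp_flox_CM.

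**Figure D2:**
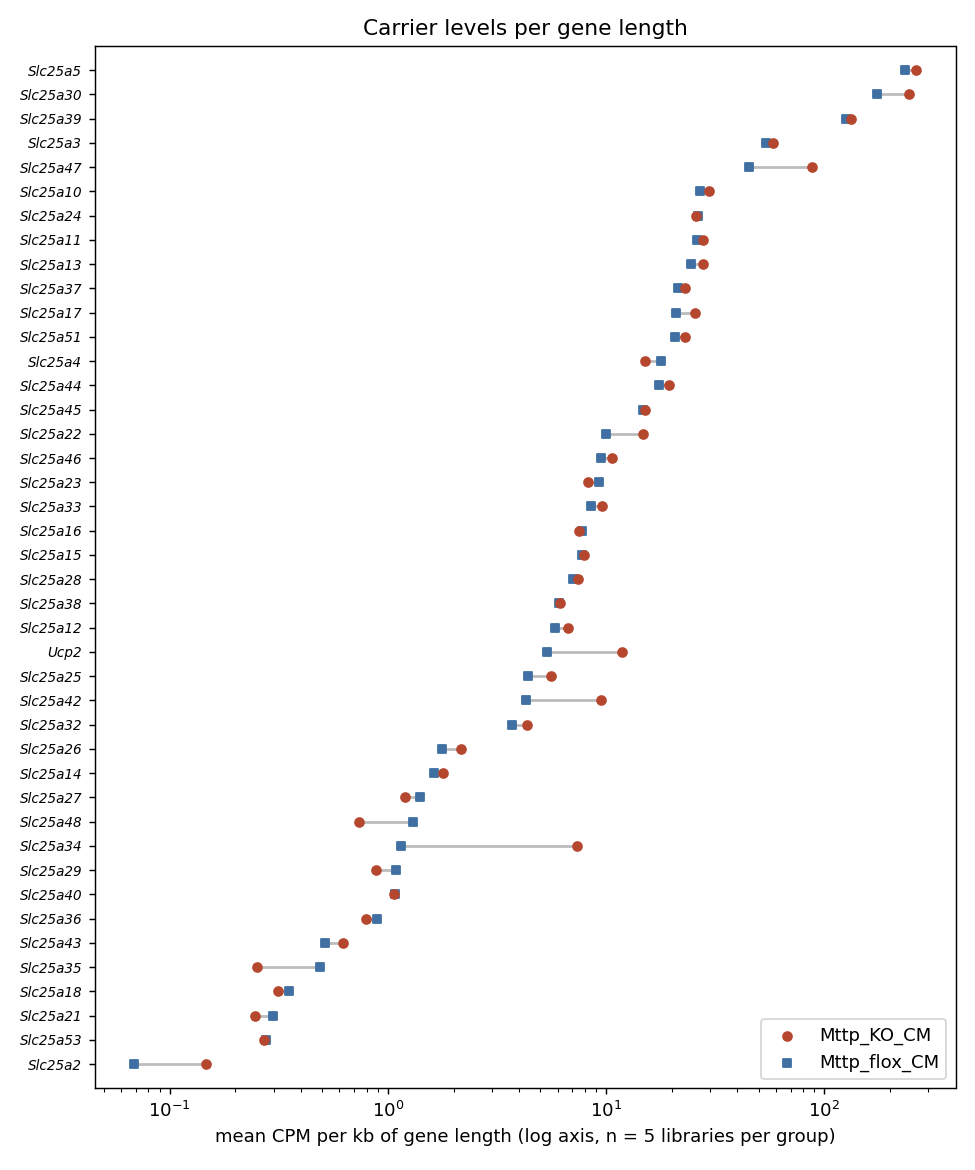
Mean level of each carrier in CPM per kb of gene length, on a log axis, for Mttp_KO_CM (circles) and Mttp_flox_CM (squares), n = 5 libraries per group, for 42 genes that reached 0.1 CPM per kb in either group. Slc25a5, Slc25a30 and Slc25a39 lie above 100 CPM per kb in both groups, and Slc25a34 shows the widest gap upwards.

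Libraries are given below in the order of replicates 1 to 4 and then the unnumbered one. The ADP/ATP carriers exchange cytosolic ADP for matrix ATP, and the phosphate carrier supplies the phosphate for its synthesis. Slc25a5, also called Ant2 (ENSMUSG00000016319, chromosome X from 36059304 to 36062460, plus strand, GRCm39), had 438, 434, 432, 431 and 435 CPM in Mttp_KO_CM, against 395, 392, 387, 378 and 382 CPM in Mttp_flox_CM. Every Mttp_KO_CM library lay above every Mttp_flox_CM library, and the gene rose by a log2 change of 0.17 (standard error (SE) 0.024, edgeR adjusted p = 5.1e-06). Slc25a4, or Ant1, which is best known from heart and muscle, fell at a far lower level and averaged 35.4 ± 3.47 CPM in Mttp_KO_CM and 42 ± 1.16 CPM in Mttp_flox_CM (log2 -0.24, SE 0.055, edgeR adjusted p = 0.00112). The groups overlapped for Slc25a4 through Mttp_KO_CM replicate 3 at 40.5 CPM. Per kb the Slc25a4 level was 15.1 ± 1.47 in Mttp_KO_CM and 17.8 ± 0.492 in Mttp_flox_CM. Slc25a3 rose slightly to 322 ± 11.8 CPM in Mttp_KO_CM, against 301 ± 6.81 CPM in Mttp_flox_CM (log2 0.10, edgeR adjusted p = 0.0089), and lost this call with library size scaling (log2 0.06, adjusted p = 0.111). Slc25a31, the ADP/ATP carrier known from testis, was not tested, with 0 counts in all Mttp_KO_CM libraries and 8 counts in all Mttp_flox_CM libraries together.

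The ATP-Mg/phosphate carriers adjust the matrix pool of adenine nucleotides, and most of them are regulated by calcium. They did not move together. Slc25a24 had the highest level per kb of them, and had 88.0, 95.1, 88.2, 82.4 and 87.3 CPM in Mttp_KO_CM, against 90.0, 96.9, 90.1, 91.3 and 85.8 CPM in Mttp_flox_CM. The groups overlapped, and the change was not past the threshold (log2 -0.04, 95% interval -0.13 to 0.04, edgeR adjusted p = 0.456). Slc25a25 rose, with 43.0, 49.0, 42.4, 45.8 and 40.2 CPM in Mttp_KO_CM, against 35.1, 36.9, 36.2, 32.1 and 32.9 CPM in Mttp_flox_CM. Its groups did not overlap (log2 0.35, SE 0.054, edgeR adjusted p = 1.4e-05). Slc25a23 fell, at 43.6 ± 4.05 CPM in Mttp_KO_CM and 49.2 ± 1.73 CPM in Mttp_flox_CM (log2 -0.18, edgeR adjusted p = 0.0112). Without Mttp_KO_CM replicate 4 the Slc25a23 call was lost (log2 -0.13, adjusted p = 0.0515). Slc25a41 was not tested, with 4 counts in Mttp_KO_CM and 1 count in Mttp_flox_CM over all libraries. Slc25a23 and Slc25a25 each overlap a gene on the opposite strand, Crb3 and Naif1, whose own changes did not pass (log2 0.00 and 0.10).

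Among the uncoupling proteins and their closest relatives, Ucp2 rose the most. Ucp2 (ENSMUSG00000033685, chromosome 7 from 100142544 to 100151227, plus strand) had 89.2, 89.0, 80.8, 77.1 and 77.2 CPM in Mttp_KO_CM, against 39.2, 35.4, 38.4, 36.7 and 37.7 CPM in Mttp_flox_CM. The lowest Mttp_KO_CM library was well above the highest Mttp_flox_CM library, and the change was 2.21-fold (log2 1.14, SE 0.049, edgeR adjusted p = 1.7e-15). Ucp2 overlaps Dnajb13 on the opposite strand by 305 bases, and Dnajb13 averaged 19.3 counts per library where Ucp2 averaged 914. Slc25a30, a close relative also called KMCP1, had 1143, 1148, 1104, 1077 and 1108 CPM in Mttp_KO_CM, against 799, 808, 813, 783 and 801 CPM in Mttp_flox_CM. Its groups were clearly apart and tight (log2 0.48, SE 0.024, edgeR adjusted p = 3.7e-14). Slc25a14 and Slc25a27, known mainly from brain, averaged between 3.85 and 5.52 CPM and did not pass. The log2 change of Slc25a14 was 0.13 (95% interval -0.17 to 0.44) and that of Slc25a27 was -0.23 (95% interval -0.53 to 0.08).

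The other uncoupling proteins were at or near the detection limit. Ucp1 had 0 counts in all 10 libraries. In 1 library taken alone this allows a level of up to 0.175 to 0.211 CPM depending on the library (3 counts, counting error only), and the 10 together allow less. Ucp3, which lies 6905 bases upstream of Ucp2, had 8 counts in Mttp_KO_CM and 5 counts in Mttp_flox_CM over all libraries. Ucp3 was too low to be tested beside the rise of its neighbour. Of 12 adipocyte markers 3 passed the filter on low counts and 2 rose, where 18.2% of all genes tested were higher. The summed level of the list was 105 to 121 CPM in Mttp_KO_CM and 93.8 to 108 CPM in Mttp_flox_CM, nearly all of it Fabp4. Lep and Cfd had no counts in any library and Adipoq averaged 0.0491 ± 0.0674 CPM in Mttp_KO_CM and 0 in Mttp_flox_CM. Plin1, also too low to be tested, had 31 counts in Mttp_KO_CM and 9 counts in Mttp_flox_CM, and its groups did not overlap. Cidea was higher, at 2.56 ± 0.337 CPM in Mttp_KO_CM and 1.58 ± 0.415 CPM in Mttp_flox_CM (log2 0.71, edgeR adjusted p = 0.00779). Fabp4, which liver endothelium also expresses, was at 108 ± 6.22 CPM in Mttp_KO_CM and 98.3 ± 5.36 CPM in Mttp_flox_CM (log2 0.13, edgeR adjusted p = 0.0191), and Prdm16 did not pass (log2 -0.49, edgeR adjusted p = 0.19). The 12 endothelial markers, given below, all fell. The part of these markers in the rise of Ucp2 was not tested.

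**Figure D3:**
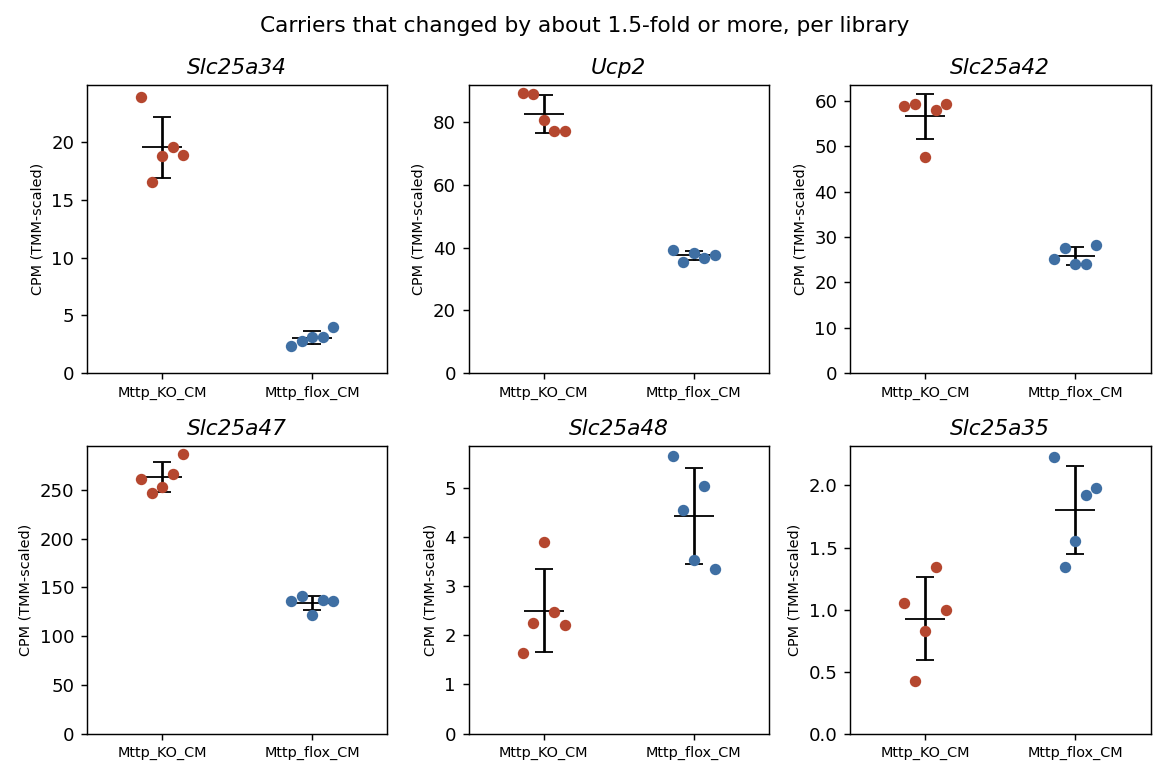
CPM in each library for the 6 carriers that passed the threshold with a log2 change of at least 0.58 in size; dots are libraries, and bars give the mean ± SD of 5 libraries. Mttp_KO_CM lies far above Mttp_flox_CM for Slc25a34, Ucp2, Slc25a42 and Slc25a47, while Slc25a48 and Slc25a35 are lower in Mttp_KO_CM at levels of a few CPM or less.

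The dicarboxylate carriers export and exchange malate, succinate and oxoglutarate. Slc25a10, which trades malate or succinate for phosphate, had 111, 107, 101, 97.3 and 94.2 CPM in Mttp_KO_CM, against 93.9, 90.9, 94.3, 89.8 and 93.4 CPM in Mttp_flox_CM. The unnumbered Mttp_KO_CM library at 94.2 CPM touched the Mttp_flox_CM range, and the rise was small (log2 0.14, SE 0.041, edgeR adjusted p = 0.00758). Slc25a11, the oxoglutarate/malate carrier of the malate-aspartate shuttle, averaged 59.2 ± 4.21 CPM in Mttp_KO_CM and 55.1 ± 2.53 CPM in Mttp_flox_CM and did not pass (log2 0.10, edgeR adjusted p = 0.101), but passed without Mttp_KO_CM replicate 4 (log2 0.14, adjusted p = 0.0331). Slc25a21, the oxoadipate carrier of lysine and tryptophan breakdown, was near 1 CPM (log2 -0.29, 95% interval -0.78 to 0.20).

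Of 8 tested amino acid carriers 4 rose, and the other 4 did not pass, where 18.2% of all genes tested were higher. Slc25a22, a glutamate carrier, changed most, with 91.3, 87.3, 87.6, 85.4 and 90.9 CPM in Mttp_KO_CM, against 57.8, 60.8, 53.9, 62.5 and 63.4 CPM in Mttp_flox_CM. The groups lay far apart, and the rise was just under 1.5-fold (log2 0.57, SE 0.043, edgeR adjusted p = 1.2e-10). The aspartate/glutamate carrier Slc25a13, called citrin and needed in liver for the malate-aspartate shuttle and the urea cycle, had 103, 99.5, 111, 105 and 108 CPM in Mttp_KO_CM, against 90.3, 93.8, 93.9, 96.3 and 92.2 CPM in Mttp_flox_CM. All Mttp_KO_CM libraries were higher, by a log2 change of 0.18 (SE 0.036, edgeR adjusted p = 3.9e-04). Its paralog Slc25a12, or aralar, rose by nearly the same, 0.19 (SE 0.046, edgeR adjusted p = 0.00181), from a lower level per kb: 6.67 ± 0.362 in Mttp_KO_CM and 5.84 ± 0.236 in Mttp_flox_CM, where Slc25a13 had 27.8 ± 1.21 in Mttp_KO_CM and 24.6 ± 0.589 in Mttp_flox_CM. The branched-chain amino acid carrier Slc25a44 rose by 0.15 (SE 0.042, edgeR adjusted p = 0.00487).

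The ornithine carrier Slc25a15, which links mitochondrial and cytosolic steps of the urea cycle, averaged 44.5 ± 2.73 CPM in Mttp_KO_CM and 43.4 ± 0.953 CPM in Mttp_flox_CM (log2 0.04, 95% interval -0.06 to 0.13). The glycine carrier Slc25a38 was also near 0 in change (log2 0.01, 95% interval -0.14 to 0.16). Slc25a18, a glutamate carrier, was under 1 CPM, and Slc25a29, a carrier of basic amino acids, was between 2 and 3 CPM on average (log2 -0.29, 95% interval -0.66 to 0.09). The annotated bounds of Slc25a29 and Slc25a47 lie 163 bases apart, and the genes are read from opposite strands. Their RefSeq start-site windows lie further apart, at chr12:108835827-108836126 for Slc25a29 and chr12:108850879-108851178 for Slc25a47 (GRCm38.p6). Unlike Slc25a47, described below, Slc25a29 did not pass the test. The difference between these neighbours was not tested. Slc25a2, an ornithine carrier, was not tested, with 15 counts in Mttp_KO_CM and 7 counts in Mttp_flox_CM.

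Carriers of nucleotides, coenzymes and vitamins rose in 5 of 9, and the other 4 did not pass, where 18.2% of all genes tested were higher. Slc25a42, which brings coenzyme A into the matrix (ENSMUSG00000002346, chromosome 8 from 70636990 to 70664955, minus strand), had 58.9, 59.4, 47.7, 58.0 and 59.3 CPM in Mttp_KO_CM, against 25.1, 27.6, 24.1, 24.0 and 28.2 CPM in Mttp_flox_CM. Mttp_KO_CM replicate 3 was below the other libraries of its group and still well above Mttp_flox_CM, and the change was 2.19-fold (log2 1.13, SE 0.062, edgeR adjusted p = 1.6e-13). Slc25a17, the peroxisomal carrier of coenzyme A, FAD and NAD, had 72.1, 69.5, 77.9, 77.2 and 66.5 CPM in Mttp_KO_CM, against 58.5, 55.6, 62.1, 61.3 and 58.5 CPM in Mttp_flox_CM. Its groups did not overlap (log2 0.30, SE 0.047, edgeR adjusted p = 1.7e-05). The NAD carrier Slc25a51 rose by 0.15 (SE 0.035, edgeR adjusted p = 0.00109) and the folate and FAD carrier Slc25a32 by 0.24 (SE 0.054, edgeR adjusted p = 0.00104).

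The S-adenosylmethionine carrier Slc25a26 also passed, at 10.4 ± 0.737 CPM in Mttp_KO_CM and 8.57 ± 1.23 CPM in Mttp_flox_CM (log2 0.28, edgeR adjusted p = 0.0321). It overlaps Lrig1 on the opposite strand, which had more reads and rose by 0.13. The Slc25a26 call was lost under 8 of 19 alternatives, among them 5 that left out 1 library each: Mttp_KO_CM replicate 1 (log2 0.26), Mttp_KO_CM replicate 3 (0.25), Mttp_flox_CM replicate 3 (0.25), Mttp_flox_CM replicate 4 (0.26) and the unnumbered Mttp_flox_CM library (0.22). Slc25a16, linked to matrix coenzyme A, had a log2 change of -0.05 (95% interval -0.16 to 0.07). The pyrimidine nucleotide carriers Slc25a33 and Slc25a36 had log2 changes of 0.16 and -0.17, and neither passed. Slc25a42 thus rose where Slc25a16, the other gene linked to coenzyme A in the matrix, did not pass the test. The difference between the 2 was not tested.

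Iron and glutathione carriers moved little. Slc25a39, which imports glutathione, had 390, 361, 361, 344 and 375 CPM in Mttp_KO_CM, against 358, 353, 348, 343 and 340 CPM in Mttp_flox_CM. The groups overlapped and the change did not pass (log2 0.07, 95% interval 0.01 to 0.13, edgeR adjusted p = 0.0697), although it did without Mttp_KO_CM replicate 4 (log2 0.09, adjusted p = 0.0181). Mitoferrin 1, Slc25a37, which brings iron to heme and iron-sulfur cluster synthesis, had 148, 140, 134, 135 and 133 CPM in Mttp_KO_CM, against 131, 128, 135, 123 and 127 CPM in Mttp_flox_CM. Mttp_flox_CM replicate 3 lay within the Mttp_KO_CM range (log2 0.10, SE 0.036, edgeR adjusted p = 0.028). The Slc25a37 call was lost under 6 of 19 alternatives, with library size scaling (log2 0.06) and without Mttp_KO_CM replicate 1 (0.08) or 2 (0.09), or without Mttp_flox_CM replicate 2 (0.10), replicate 4 (0.08) or the unnumbered library (0.09). Mitoferrin 2, Slc25a28, and the glutathione carrier Slc25a40 did not pass (log2 0.08 and -0.01).

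The carriers whose substrates are little known or unsettled held the largest changes in both directions. Slc25a34 (ENSMUSG00000040740, chromosome 4 from 141346135 to 141351132, minus strand) had 23.9, 16.6, 18.8, 19.6 and 18.9 CPM in Mttp_KO_CM, against 2.37, 2.81, 3.10, 3.10 and 3.95 CPM in Mttp_flox_CM. The groups were far apart in every library, and the rise was 6.36-fold (log2 2.67, SE 0.12, edgeR adjusted p = 4.2e-15). It rested on 1492 counts in Mttp_KO_CM and 234 counts in Mttp_flox_CM. Slc25a47, a carrier found mainly in liver (ENSMUSG00000048856, chromosome 12 from 108801972 to 108822741, plus strand), had 261, 247, 253, 266 and 287 CPM in Mttp_KO_CM, against 136, 141, 122, 137 and 136 CPM in Mttp_flox_CM. It rose 1.95-fold, with no overlap (log2 0.97, SE 0.040, edgeR adjusted p = 6.1e-16).

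Slc25a35, the closest relative of Slc25a34, went the other way at a much lower level. It had 1.05, 0.421, 0.828, 1.34 and 0.999 CPM in Mttp_KO_CM, against 2.23, 1.34, 1.55, 1.92 and 1.98 CPM in Mttp_flox_CM. The groups met at 1.34 CPM, and the gene rested on 71 counts in Mttp_KO_CM and 137 counts in Mttp_flox_CM (log2 -0.94, SE 0.26, edgeR adjusted p = 0.00531). Slc25a35 overlaps Rangrf on the opposite strand by 1882 bases, and Rangrf averaged 0.5 counts per library where Slc25a35 averaged 20.8. The part of this overlap in the counts was not tested. Slc25a48, reported to act in mitochondrial choline import, had 1.64, 2.25, 3.90, 2.48 and 2.21 CPM in Mttp_KO_CM, against 5.65, 4.55, 3.53, 5.03 and 3.34 CPM in Mttp_flox_CM. Mttp_KO_CM replicate 3 lay inside the Mttp_flox_CM range (log2 -0.81, SE 0.20, edgeR adjusted p = 0.00231). On log2 of FPKM plus 1, which shrinks changes of low genes, Slc25a34 changed by 1.95, Slc25a35 by -0.25 and Slc25a48 by -0.41. Slc25a46, a relative in the outer mitochondrial membrane, rose by 0.19 (SE 0.045, edgeR adjusted p = 0.00174). Slc25a45, Slc25a43 and Slc25a53 did not pass (log2 0.03, 0.26 and -0.01), and Slc25a54 had 1 count in Mttp_KO_CM and 0 counts in Mttp_flox_CM.

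Both carriers that the rule left out were higher. Slc25a20, the carrier of the carnitine shuttle, rose to 114 ± 3.81 CPM in Mttp_KO_CM, against 61.8 ± 2.35 CPM in Mttp_flox_CM (log2 0.88, SE 0.038, edgeR adjusted p = 1.7e-15), and Slc25a1 by a log2 change of 0.10 (adjusted p = 0.0316), a call lost under 7 of 19 alternatives.

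Carrier precursors enter through the TOM and TIM22 machinery, for which 10 of 15 tested genes rose and the other 5 did not pass, with a median log2 change of 0.21. Over all genes tested 18.2% were higher. The receptor Tomm70a, which binds carrier precursors, rose by 0.33 (SE 0.032, edgeR adjusted p = 1.1e-08), Tomm20 by 0.33, Tomm5 by 0.34 and the carrier chaperone Timm10 by 0.33. Enzymes of the malate-aspartate, glycerol phosphate and citrate-malate shuttles rose in 7 of 9, and the other 2 did not pass (median log2 0.20). The malic enzyme Me1 and the glycerol phosphate dehydrogenase Gpd1 each rose by 0.31, Mdh2 by 0.23 and Acly by 0.20.

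ATP synthase subunits use the ADP and phosphate that the carriers supply. Of 15 subunits 8 rose and the other 7 did not pass (median log2 0.10), where 18.2% of all genes tested were higher. The largest of these was the c-ring gene Atp5g1, at 0.25, with Atp5a1 at 0.18 and Atp5c1 and Atp5g3 at 0.14 each, and with library size scaling 5 rose. Of 24 other transporters of the mitochondrial membranes 7 rose and 1 fell, with a median log2 change of 0.03. Together 33.3% of these 24 were called, where 36.4% of all genes tested were. The porins Vdac1, Vdac2 and Vdac3 rose by 0.14, 0.15 and 0.18, while the sideroflexin Sfxn3 fell by 0.27. All changes called in these 4 lists were under 1.5-fold, while the carriers held 6 calls at or above it. Over all genes tested 2.45% rose and 5.09% fell by at least as much. Whether the lists differ was not tested.

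**Figure D4:**
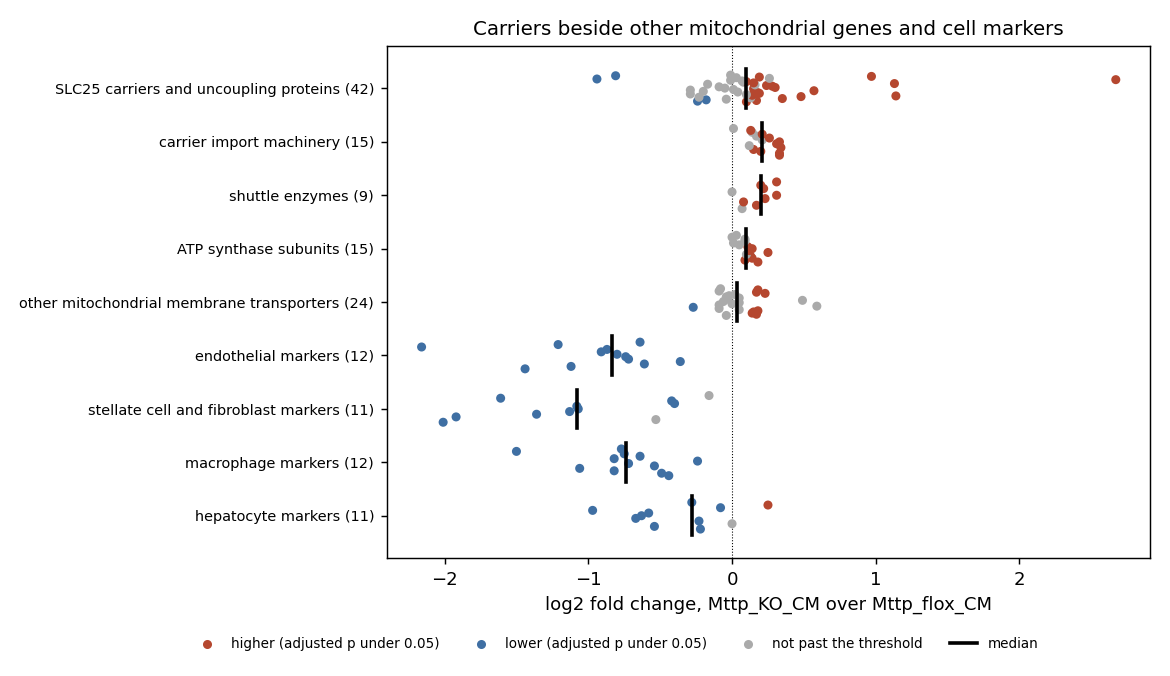
Log2 fold change of Mttp_KO_CM over Mttp_flox_CM for each tested gene of the carriers, 4 lists of related mitochondrial genes and 4 lists of cell type markers, with the number of genes in brackets and a black line at the median. The carriers spread from -0.94 to 2.67, and the related mitochondrial lists lie between -0.27 and 0.59. Markers of endothelial, stellate and macrophage cells lie below 0. The adipocyte markers are not shown.

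The libraries also held RNA of other liver cells, and these markers moved with the group. For comparison, 18.1% of all genes tested were lower. Endothelial markers fell in 12 of 12 (median log2 -0.84), and their summed level was 1409 to 1490 CPM in Mttp_KO_CM and 2433 to 2602 CPM in Mttp_flox_CM. Macrophage markers fell in 12 of 12 (median log2 -0.73), with sums of 553 to 638 CPM in Mttp_KO_CM and 871 to 974 CPM in Mttp_flox_CM. Stellate cell markers fell in 9 of 11, with sums of 54.7 to 61.9 CPM in Mttp_KO_CM and 99.1 to 111 CPM in Mttp_flox_CM. None of the markers on these 3 lists was at 0. In bulk libraries fewer cells of a type and less RNA per cell cannot be told apart. The VEGF receptor Kdr was at 44.9 ± 2.07 CPM in Mttp_KO_CM and 122 ± 5.50 CPM in Mttp_flox_CM, and the macrophage receptor Cd163 at 67.1 ± 2.47 CPM in Mttp_KO_CM and 140 ± 5.38 CPM in Mttp_flox_CM.

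Hepatocyte markers were present at high level in every library and fell in 9 of 11 while Cyp2e1 rose (median log2 -0.28), with Alb at 25098 ± 594 CPM in Mttp_KO_CM and 29137 ± 507 CPM in Mttp_flox_CM. The share over all genes tested was 18.1% lower and 18.2% higher. Ucp2, Slc25a42, Slc25a47 and Slc25a34 rose while the sums of the endothelial, macrophage, stellate and hepatocyte lists were lower in Mttp_KO_CM. Slc25a4, Slc25a23, Slc25a35 and Slc25a48 fell along with the sums of these 4 lists. The adipocyte list went the other way, with a mean sum of 112 ± 6.38 CPM in Mttp_KO_CM and 102 ± 5.3 CPM in Mttp_flox_CM. Its ranges overlapped. The part of the marker lists in the changes of these carriers was not tested.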

How the data were processed

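RNA-seq libraries of wild-type mouse hepatocytes, 5 in Mttp_KO_CM and 5 in Mttp_flox_CM, were analysed. The authors deposited raw counts per gene and a table of FPKM values, 1 column per library. Per the submitters' processing notes, HISAT2 2.0.5, featureCounts 1.5.0-p3 and GRCm39 were used; the sources used here do not give the strand setting or the treatment of multi-mapping reads. All 10 value columns were used. Each deposited FPKM value was proportional to count over gene length, with 1 constant per library.

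The tests used edgeR 4.0.16 in R 4.3.3 on the deposited counts: filterByExpr (minimum count 10, minimum total 15, leaving 14183 of 56748 genes and 99.8% of counts), TMM scaling, and the quasi-likelihood test with group as the only term and Benjamini-Hochberg adjustment over all genes tested. Log2 changes are Mttp_KO_CM over Mttp_flox_CM. Values are mean ± SD over 5 libraries. Alternatives used DESeq2 1.42.0, limma 3.58.1 on FPKM, other scalings and filters, libraries left out and a replicate block. The test was tried on simulated data. Members, gene lists and tests were chosen with earlier results of these data known. Per-library values are given for members past a log2 change of 0.58 in size and, per role, for the highest level per kb and the smallest p; of other lists up to 4 genes with the smallest p and any called against the majority. Other genes were picked with their values in view. The values of 1 tested carrier and 1 gene of the other lists are not reported here, though the counts include them. No 2 libraries agreed within counting noise.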

Additional observations from a re-analysis of the deposited data

Results flagged for a closer look

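Single libraries stood apart from the other 4 of their group for 6 genes among 162 combinations of gene and group examined, where chance gives about 1 in 20. Among the carriers, Slc25a42 was at 47.7 CPM in Mttp_KO_CM replicate 3, where the other 4 averaged 58.9 CPM, and its log2 change was 1.19 without that library. Slc25a14 was at 4.71 CPM in Mttp_flox_CM replicate 3, where the others averaged 3.63 CPM. Slc25a32 was at 21.2 CPM in Mttp_flox_CM replicate 4, where the others averaged 22.7 CPM. Of the other genes, Acta2 was at 1.71 CPM in Mttp_KO_CM replicate 1 (others 1.12), and in Mttp_flox_CM replicate 3 Atp5a1 was at 727 CPM (others 747) and Atp5g1 at 51.5 CPM (others 59.9).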

How the results depend on the processing

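Of the 23 called carriers, 19 kept their direction and their call under each of the 19 alternatives that tested them; Slc25a3, Slc25a23, Slc25a26 and Slc25a37 lost the call under at least 1. The 2 that gained a call, both without Mttp_KO_CM replicate 4, were Slc25a11 and Slc25a39. Leaving out 1 library at a time gave 17 to 21 carriers higher and 3 to 4 lower, and 2305 to 2491 genes higher and 2411 to 2521 lower overall. Without both unnumbered libraries 18 carriers were higher and 4 lower. With no filter Slc25a31 was also lower (adjusted p = 0.0335), on 0 counts in Mttp_KO_CM and 8 in Mttp_flox_CM. A minimum count of 30 removed 4 carriers, among them Slc25a35. Correlations of same-numbered libraries' deviations ran from -0.0136 to 0.113, so the numbers were not taken to pair the libraries. A replicate block, fitted without both unnumbered libraries, gave 18 higher and 4 lower. Sfxn3 was not called in that fit, which differs from the main one in its libraries as well as in the block. Depth limits the carriers near 1 CPM or less, whose intervals are wide.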
